A study of Mus musculus with 33 samples.

Results

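The genes described here are 42 genes of fatty acid β-oxidation, the stepwise shortening of fatty acids in mitochondria and peroxisomes. They were chosen by their symbols and by no rule on measured values, though with earlier results of these data known. All 42 had a row among the 24421 genes counted in 33 bulk RNA-seq libraries of macrophages. Liver Kupffer cells (KCs) and lung alveolar macrophages (AMs) were sorted from mice of 6 to 8 weeks of age on a C57Bl/6 background, of mixed sex. KCs came from *Zeb2* fl/fl mice without Cre (CRE- KCs, n = 6) and from mice that carried *Clec4f-cre* beside *Zeb2* fl/fl, whose KCs were split into Tim4+ KCs (n = 6) and Tim4- KCs (n = 6). AMs came from *Zeb2* fl/fl mice without Cre (CRE- AMs, n = 5) and from mice that carried *Itgax-cre* beside *Zeb2* fl/fl, whose AMs were split into CD11b- AMs (n = 5) and CD11b+ AMs (n = 5). Every mouse thus carried the floxed *Zeb2* alleles, and *Zeb2* encodes a zinc finger transcription factor. *Clec4f-cre* is active in KCs and in a few B cells, *Itgax-cre* in AMs and in other cells that express CD11c, and the CRE+ groups held cells that had kept as well as cells that had lost *Zeb2*. By genomic PCR in the study, the cells that had kept it were heterozygous for the deletion.

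Before a fatty acid can be oxidised, an acyl-CoA synthetase couples it to coenzyme A, and the carnitine shuttle, with CPT1 at its gate, carries it into the mitochondrion. Each turn of the cycle then uses an acyl-CoA dehydrogenase, a hydratase, a second dehydrogenase and a thiolase, with electrons passed on through the electron transfer flavoprotein. Peroxisomes run a parallel cycle that starts with an oxidase and shortens very long chains. AMs are known for clearing the lipids of lung surfactant, and KCs for taking up particles and lipoproteins from the blood of the liver sinusoids.

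Between 9837240 and 24332306 reads were counted on genes per library, with a median of 20683608, and the shallowest library was replicate 1 of Tim4- KCs. Levels are given as CPM, counts scaled to a common library size with TMM factors, and changes as log2 fold changes from edgeR's quasi-likelihood test, with p-values adjusted by the Benjamini-Hochberg (BH) method over all genes tested. A gene was called higher or lower at an adjusted p under 0.05. *Zeb2* itself had 229 to 339 CPM (median 282) in CRE- KCs, 146 to 211 CPM (median 164) in Tim4+ KCs and 149 to 196 CPM (median 169) in Tim4- KCs. Its level was 184, 169, 204, 205 and 205 CPM in the 5 CRE- AM libraries, 114, 108, 84.7, 113 and 105 CPM in CD11b- AMs and 70.2, 68.2, 59.7, 62.04 and 50.3 CPM in CD11b+ AMs, and counts per gene do not show which exons they came from. The sort markers followed the labels, since *Timd4* had medians of 714 CPM in CRE- KCs, 393 CPM in Tim4+ KCs and 1.38 CPM in Tim4- KCs, and *Itgam*, which encodes CD11b, had medians of 1.87, 17.6 and 269 CPM in CRE-, CD11b- and CD11b+ AMs. In KC groups 2 libraries each, replicates 5 and 6, carried reads of the Y-linked *Ddx3y*.

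The start regions of 5 genes and of 1 gene pair on which the results below turn are shown first. The sequences are RefSeq promoter windows of GRCm38.p6, ending where the GENCODE gene begins, and read from 5′ to 3′ on the strand of the gene. Capitals mark the hexamer CACCTG or its reverse complement CAGGTG, an E-box that ZEB factors can bind. *Acsl3* at chr1:78657575-78657824 (plus strand), *Acot1* at chr12:84009252-84009489 (plus), *Crot* at chr5:8997325-8997396 (minus) and *Pdk4* at chr6:5496310-5496528 (minus) are the genes that were higher in CD11b+ AMs by more than 1 on the log2 scale. *Acaa1b* at chr9:119157094-119157343 (minus) had the widest gap between AMs and KCs, and *Hadha* and *Hadhb* are transcribed away from each other from the stretch at chr5:30155163-30155247, shown on the strand of *Hadhb*.
Acsl3: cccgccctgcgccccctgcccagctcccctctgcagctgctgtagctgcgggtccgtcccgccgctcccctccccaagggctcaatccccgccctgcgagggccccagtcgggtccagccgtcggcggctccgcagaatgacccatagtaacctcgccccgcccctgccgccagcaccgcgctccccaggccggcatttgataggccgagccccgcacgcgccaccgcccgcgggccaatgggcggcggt
Acot1: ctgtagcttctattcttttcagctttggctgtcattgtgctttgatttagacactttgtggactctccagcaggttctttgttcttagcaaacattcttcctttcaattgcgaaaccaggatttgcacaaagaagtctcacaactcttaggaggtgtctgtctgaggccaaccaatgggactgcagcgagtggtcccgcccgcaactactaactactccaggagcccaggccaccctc
Crot: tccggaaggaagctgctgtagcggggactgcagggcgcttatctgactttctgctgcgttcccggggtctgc
Pdk4: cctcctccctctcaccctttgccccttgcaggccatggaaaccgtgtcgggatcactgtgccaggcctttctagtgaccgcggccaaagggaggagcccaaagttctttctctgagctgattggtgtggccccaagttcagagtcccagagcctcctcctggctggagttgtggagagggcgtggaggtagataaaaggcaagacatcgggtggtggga
Acaa1b: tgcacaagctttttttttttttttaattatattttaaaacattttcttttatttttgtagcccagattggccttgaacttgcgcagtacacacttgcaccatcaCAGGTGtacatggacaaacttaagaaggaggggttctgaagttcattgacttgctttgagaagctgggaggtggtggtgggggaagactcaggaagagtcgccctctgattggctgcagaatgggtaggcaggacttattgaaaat
Hadha and Hadhb: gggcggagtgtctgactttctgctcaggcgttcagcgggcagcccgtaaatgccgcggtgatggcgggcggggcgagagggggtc
Of these stretches, the one before *Acaa1b* held the hexamer, starting 146 bases before the start site. Windows of 300 bases, from 250 before the start to 50 after it, were found for 34 of the 42 genes, and 5 of the 34 (14.7%) held CACCTG on either strand (*Acaa1b*, *Acot2*, *Acsl1*, *Cpt2* and *Slc25a20*). The same hexamer was present in 20.2% of all 32851 windows. A second pattern, AGGNCANAGGNCA on either strand, is a loose form of the direct repeat that PPAR and RXR bind. It was in 0.381% of all windows and in no window of these genes, which says only that these letters are not in these 300 bases.

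The CRE- groups showed how the oxidation genes stood in KCs and AMs without the deletion. Most of them were lower in KCs than in AMs. Of the 41 genes that passed the filter on low counts, 28 were lower in KCs and 3 higher, where 29.9% of all 12145 genes tested were lower and 33.3% higher. With the further limit of an absolute log2 fold change above 1, 18 were lower and 2 higher, against 12.4% and 20.9% of all genes. The median log2 fold change of KCs over AMs was -0.84 over the oxidation genes and 0.029 over all genes tested. Whether the libraries of 2 groups overlap is given below for single genes and was not counted over all genes. Since 7680 of the 12145 genes tested were called here, lack of overlap is not read as a trait of the oxidation genes. The gene that was not tested, *Cpt1b*, the muscle form of the CPT1 gate enzyme, had counts in 3 of the 33 libraries and at most 4 in any. Tissue and any batch cannot be told apart in this comparison, and in bulk samples fewer cells that express a gene and less RNA of it per cell cannot be told apart either. The heat map of all libraries and the plot of KC against AM differences show the same genes by role.

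**Figure D1:**
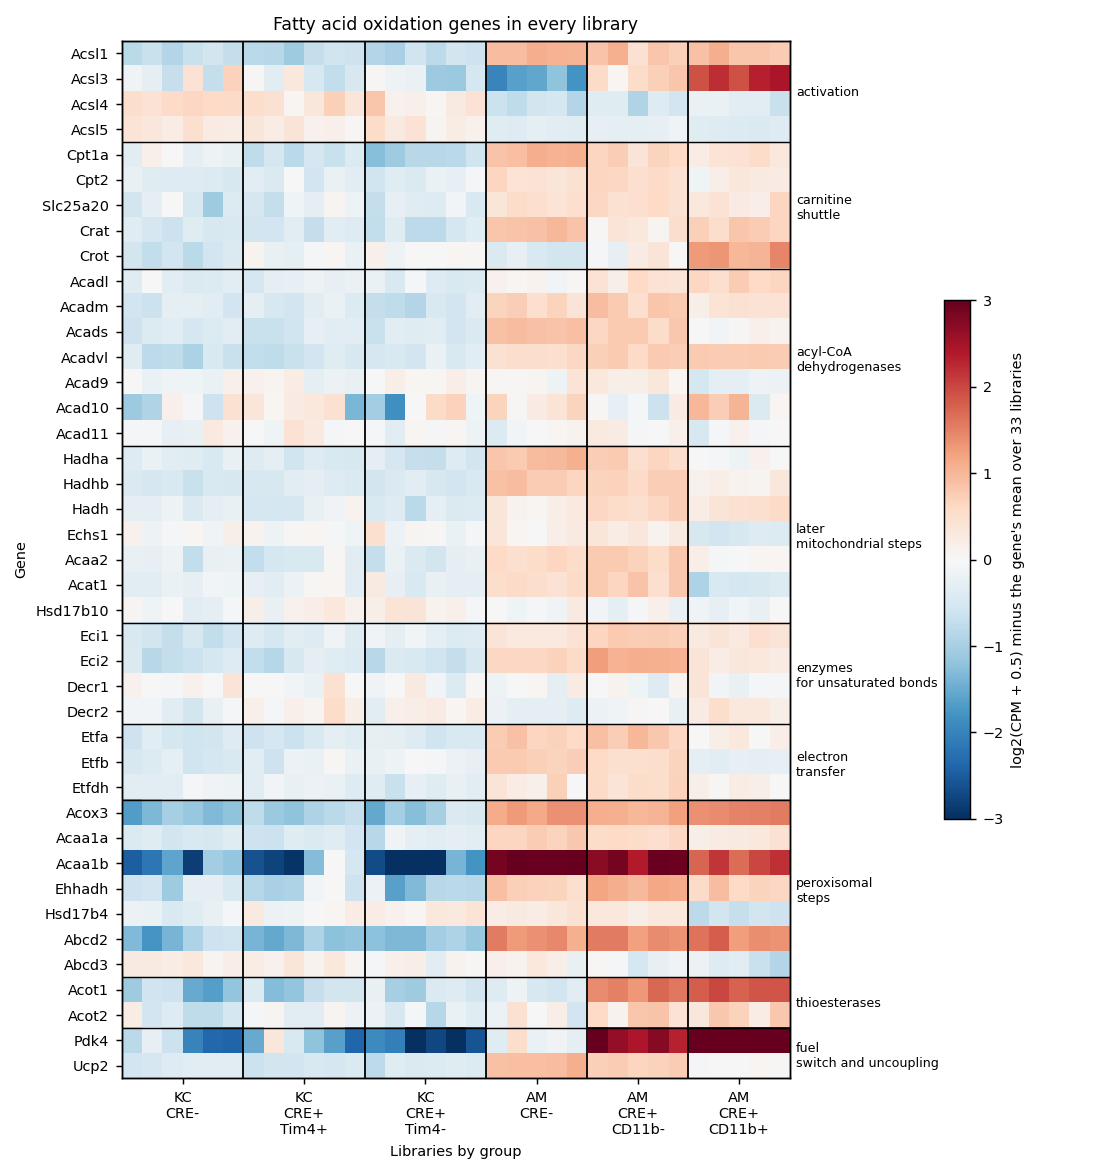
Level of 41 oxidation genes (rows, grouped by role) in 33 libraries (columns, by group), as log2(CPM + 0.5) minus the gene's mean over all libraries. Most rows are blue (below the mean) in the 18 KC libraries and red (above it) in the 15 AM libraries, and the last 5 columns, CD11b+ AMs, are paler than the other AM columns for *Hadha*, *Hadhb* and *Etfa* and darker red for *Acsl3*, *Crot* and *Pdk4*.

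The acyl-CoA synthetases, which activate fatty acids, split between the tissues. *Acsl1*, a form that feeds oxidation in many tissues, had 29.4 to 37.01 CPM (median 33.6) in CRE- KCs against 104, 104, 118, 114 and 112 CPM in the 5 CRE- AM libraries (log2 fold change -1.72, SE 0.076, edgeR BH-adjusted p = 7.49e-11). *Acsl4*, which prefers arachidonic acid, went the other way, with 99.9 to 113 CPM (median 109.9) in KCs and 46.99, 43.3, 49.98, 51.03 and 39.9 CPM in AMs (log2 fold change 1.24, SE 0.075, edgeR BH-adjusted p = 2.43e-09). *Acsl3*, a synthetase of the endoplasmic reticulum and lipid droplets, was low in both, with 5.21 to 14.5 CPM (median 7.62) in KCs and 1.87, 2.53, 2.65, 3.56 and 2.17 CPM in AMs (log2 fold change 1.77, SE 0.31, edgeR BH-adjusted p = 0.000181). For these 3 genes no KC library lay within the range of the AM libraries. *Acsl5*, with 313 to 375 CPM (median 330.2) in KCs and 207 to 225 CPM (median 211) in AMs, was also higher in KCs, by 0.67 (SE 0.064, edgeR BH-adjusted p = 3.36e-07).

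The carnitine shuttle was lower in KCs, with 4 of its 5 tested genes called. *Cpt1a*, the liver form of the outer membrane gate enzyme and the usual rate-limiting step, had 210.5 to 296 CPM (median 231) in KCs against 479.5, 499, 569, 545 and 552 CPM in AMs (log2 fold change -1.12, SE 0.09, edgeR BH-adjusted p = 6.15e-08). *Crat*, which moves acetyl groups between carnitine and coenzyme A, had 44.1 to 53.6 CPM (median 49.7) and 123, 124, 127, 138 and 125 CPM (log2 fold change -1.35, SE 0.068, edgeR BH-adjusted p = 3.21e-10). Both genes separated the tissues in every library. *Cpt2*, the inner membrane partner of CPT1, and *Slc25a20*, the carrier between them, were lower by -0.83 and -0.91. *Crot*, the peroxisomal octanoyltransferase, did not pass, at -0.15 with a 95% interval of -0.32 to 0.012, and its KC and AM libraries overlapped.

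Among the acyl-CoA dehydrogenases, which take the first electrons from the chain, 4 of 7 were lower in KCs and none higher. *Acadvl*, for very long chains, had 53.04 to 79.7 CPM (median 62.3) in KCs and 143, 149, 149, 145 and 157 CPM in AMs (log2 fold change -1.18, SE 0.10, edgeR BH-adjusted p = 8.51e-08). *Acadm*, for medium chains, had 41.8 to 55.1 CPM (median 48.1) against 106, 112, 94.6, 105 and 86.9 CPM (log2 fold change -1.04, SE 0.093, edgeR BH-adjusted p = 1.92e-07), and *Acads*, for short chains, had 42.8 to 52.2 CPM (median 49.7) against 122, 126, 123, 120.0 and 124 CPM (log2 fold change -1.32, SE 0.065, edgeR BH-adjusted p = 2.42e-10). The KC and AM libraries did not overlap for these 3 genes. *Acadl*, for long chains, differed less, at -0.34 (SE 0.083, edgeR BH-adjusted p = 0.00235). *Acad9*, better known for the assembly of respiratory complex I, was at -0.16 and did not pass, nor did the low *Acad10*, at -0.72. *Acad11*, a dehydrogenase of longer chains, passed in none of the comparisons made here. It had 20.96 to 30.4 CPM (median 24.1) in CRE- KCs, 22.8 to 33.5 CPM (median 24.7) in Tim4+ KCs, 19.9 to 26.02 CPM (median 23.9) in Tim4- KCs, 18.6, 23.5, 24.7, 25.8 and 26.7 CPM in CRE- AMs, 30.3, 29.7, 24.1, 24.8 and 27.7 CPM in CD11b- AMs and 17.7, 24.4, 27.2, 24.3 and 25.03 CPM in CD11b+ AMs, with all 6 groups overlapping.

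The later steps of the mitochondrial cycle gave 5 lower genes of 7. *Hadha* and *Hadhb* encode the α and β subunits of the trifunctional protein, which runs the last 3 steps for long chains. *Hadha* had 78.8 to 94.4 CPM (median 84.9) in KCs and 192, 186, 209.8, 213 and 227 CPM in AMs (log2 fold change -1.24, SE 0.072, edgeR BH-adjusted p = 1.43e-09), and *Hadhb* had 142 to 166 CPM (median 163) and 414, 427, 381, 386 and 353 CPM (log2 fold change -1.28, SE 0.065, edgeR BH-adjusted p = 3.14e-10). The 2 genes lie head to head on chromosome 5 with 85 bases between them (the stretch printed above), and they differed by almost the same amount. *Acaa2*, the matching thiolase for shorter chains, *Acat1*, the thiolase that splits acetoacetyl-CoA, and *Hadh*, the dehydrogenase for short chains, were lower by -0.84, -0.73 and -0.47. *Echs1*, the short-chain hydratase, and *Hsd17b10*, a dehydrogenase that also acts on branched chains, did not pass, at -0.16 and -0.12.

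All 3 electron transfer genes were lower in KCs. *Etfa* and *Etfb* encode the 2 subunits of the flavoprotein that collects electrons from the dehydrogenases. *Etfa* had 64.7 to 79.2 CPM (median 68.5) in KCs and 169.7, 183, 158, 162 and 151 CPM in AMs (log2 fold change -1.21, SE 0.074, edgeR BH-adjusted p = 2.98e-09). *Etfb* had 94.1 to 117 CPM (median 102) and 247, 244, 234, 226 and 238 CPM (log2 fold change -1.19, SE 0.063, edgeR BH-adjusted p = 5.6e-10), so that both subunits separated the tissues by a similar step. *Etfdh*, which hands the electrons to ubiquinone, was lower by -0.52. Among the enzymes that deal with double bonds, the isomerase *Eci2* had 26.3 to 35.98 CPM (median 31.2) in KCs and 72.2, 71.8, 72.3, 75.5 and 70.4 CPM in AMs (log2 fold change -1.20, SE 0.088, edgeR BH-adjusted p = 2.24e-08), and *Eci1* was lower by -0.93. The reductases *Decr1* (mitochondrial) and *Decr2* (peroxisomal) did not pass, at 0.14 and 0.091. *Decr1* passed in no comparison, with 19.99 to 27.4 CPM (median 21.8) in CRE- KCs, 18.1 to 28.6 CPM (median 21.03) in Tim4+ KCs, 15.4 to 24.9 CPM (median 20.1) in Tim4- KCs, 18.7, 20.8, 21.5, 16.8 and 24.8 CPM in CRE- AMs, 20.5, 22.3, 18.98, 15.9 and 21.98 CPM in CD11b- AMs and 27.3, 19.4, 17.8, 19.8 and 19.9 CPM in CD11b+ AMs, all overlapping. Of the 50-base words in *Etfb* transcripts, 44.8% are also found in transcripts of another annotated gene, mostly *Gm45233*, so its counts are uncertain.

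**Figure D2:**
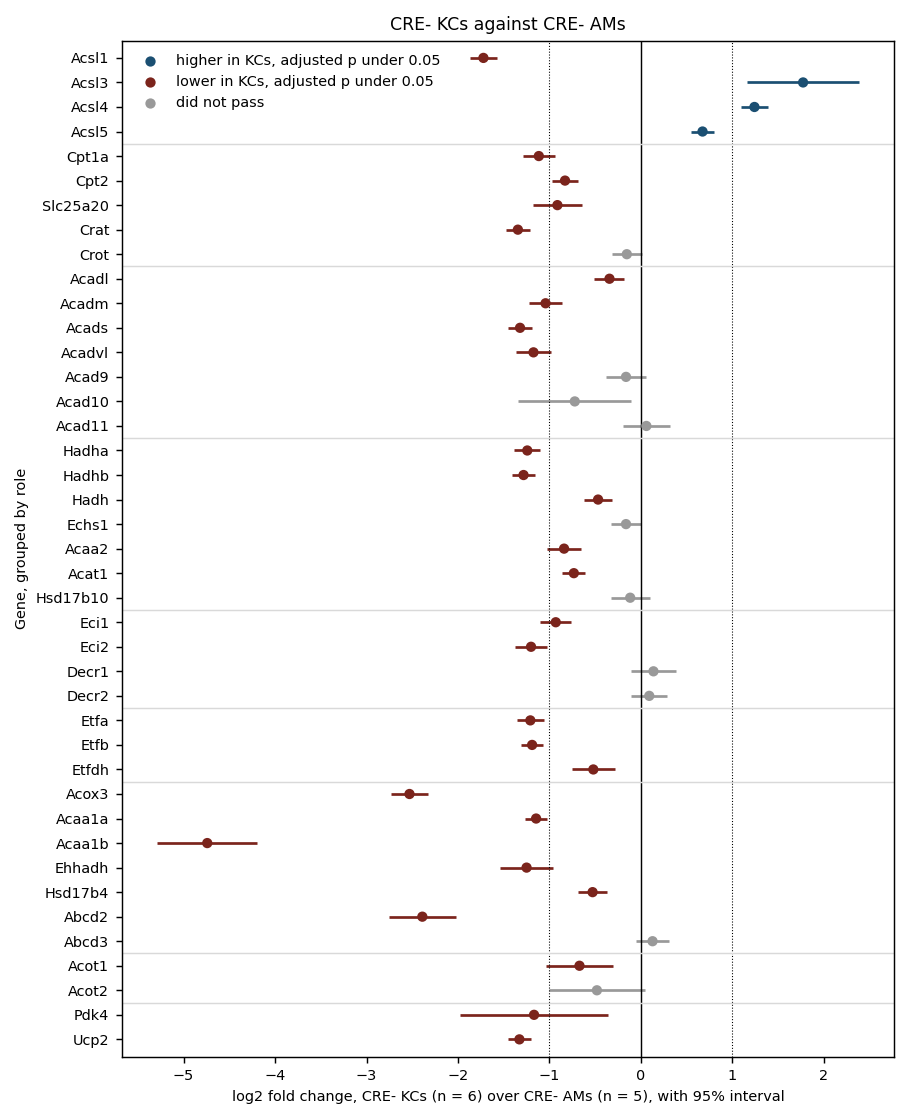
Log2 fold change of CRE- KCs (n = 6) over CRE- AMs (n = 5) for 41 oxidation genes, as points with 95% intervals, ordered by role, with dotted lines at -1 and 1. The 3 points to the right that passed are *Acsl3*, *Acsl4* and *Acsl5*, and *Acaa1b*, at -4.74, is farthest to the left.

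The widest gaps were peroxisomal, with 6 of 7 genes lower in KCs and 5 of them by more than 1 on the log2 scale. *Acaa1b*, a peroxisomal thiolase, had 4.27 to 15.9 CPM (median 8.94) in KCs and 246, 271, 263, 265 and 269.9 CPM in AMs (log2 fold change -4.74, SE 0.28, edgeR BH-adjusted p = 1.83e-09). *Acox3*, an oxidase for branched chains, had 30.2 to 48.7 CPM (median 40.5) against 212, 238, 216, 254 and 253 CPM (log2 fold change -2.53, SE 0.11, edgeR BH-adjusted p = 4.04e-11), and *Abcd2*, a transporter of very long chains into the peroxisome, had 30.98 to 70.5 CPM (median 49.2) against 313, 259.7, 275, 290.1 and 225 CPM (log2 fold change -2.39, SE 0.19, edgeR BH-adjusted p = 4.58e-08). AM levels were many times those of KCs for these 3 genes, with no overlap. *Ehhadh*, the bifunctional enzyme of the classical pathway, had 8.15 to 14.6 CPM (median 12.2) in KCs and 33.4, 29.2, 28.9, 28.4 and 25.2 CPM in AMs (log2 fold change -1.25, SE 0.15, edgeR BH-adjusted p = 3.17e-06). *Acaa1a*, the sister thiolase of *Acaa1b*, had 74.03 to 83.9 CPM (median 79.4) and 169.9, 170.3, 183, 174 and 191 CPM (log2 fold change -1.15, SE 0.061, edgeR BH-adjusted p = 6.37e-10). *Hsd17b4*, the bifunctional enzyme for branched and very long chains, was lower by -0.53, and *Abcd3*, another transporter, did not pass, at 0.13. *Acaa1a* and *Acaa1b* share sequence, with 30.5% of the 50-base words of *Acaa1b* found in another gene, each time *Acaa1a*, so their split is uncertain.

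Within KCs *Acaa1b* followed the replicate numbers. In each KC group its level was higher in replicates 5 and 6, the libraries with *Ddx3y* reads, than in replicates 1 to 4. These were 14.7 to 15.9 CPM against 4.27 to 10.9 CPM in CRE- KCs, 22.9 to 32.9 CPM against 3.93 to 13.1 CPM in Tim4+ KCs, and 9.29 to 12.4 CPM against 0.822 to 4.80 CPM in Tim4- KCs. *Acaa1b* was the only tested oxidation gene with this order in all 3 KC groups, a choice made after its values were seen and with no test. Every KC library lay below every AM library whichever replicates are taken.

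Of the genes beside the cycle, *Ucp2*, a carrier of the inner mitochondrial membrane once classed as an uncoupler, had 1320.4 to 1600.1 CPM (median 1547) in KCs and 3647, 3716, 3702, 3742 and 4186 CPM in AMs (log2 fold change -1.33, SE 0.063, edgeR BH-adjusted p = 1.65e-10). *Pdk4*, the kinase that shuts pyruvate dehydrogenase and so favours fat over glucose as fuel, had 1.95 to 10.4 CPM (median 4.85) in KCs and 9.58, 18.3, 10.8, 11.6 and 10.1 CPM in AMs (log2 fold change -1.17, SE 0.41, edgeR BH-adjusted p = 0.0239). Its groups overlapped, and without replicate 2 of CRE- AMs the log2 fold change was -0.97 with an edgeR BH-adjusted p of 0.0709. *Acot1*, a cytosolic acyl-CoA thioesterase, was lower in KCs by -0.67 (SE 0.19, edgeR BH-adjusted p = 0.00635), and its mitochondrial neighbour *Acot2* did not pass, at -0.48.

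Levels per kilobase of exon set genes beside each other only roughly. The length used joins all annotated exons of a gene, such as 8730 bases for *Hadha* and 1164 for *Etfb*. A gene whose expressed transcript is shorter than that gets too low a value, so the order below depends on the annotation. In CRE- AMs *Ucp2* stood first with 544 ± 31.4 CPM per kb (SD, n = 5), then *Etfb* with 204 ± 7.23, *Hsd17b4* with 145 ± 10.1, *Acaa1b* with 134 ± 5.22 and *Acaa2* with 111 ± 4.95. The levels per kb of *Hsd17b4* and *Acaa1b* lay within about 1 SD of each other, while the other neighbours in that order were farther apart than their SDs. In CRE- KCs the order was *Ucp2* with 215 ± 16.4 CPM per kb (SD, n = 6), *Hsd17b4* with 99.8 ± 10.2, *Etfb* with 88.9 ± 6.84, *Acsl5* with 69.2 ± 5.22 and *Acaa2* with 61.3 ± 8.48. There *Hsd17b4* and *Etfb*, and *Acsl5* and *Acaa2*, were each within about 1 SD. The same first gene in both tissues, *Ucp2*, thus differed in level but not in its rank by this measure.

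CRE+ AMs were read by comparing each CRE+ group with CRE- AMs, and these 2 comparisons share the same 5 CRE- libraries. CRE- AMs were not split by CD11b, so loss of *Zeb2*, sort gate and cell origin cannot be told apart. In CD11b- AMs 11 of 41 oxidation genes were higher and 5 lower, where 13.3% and 12.4% of all 11573 genes tested were. In CD11b+ AMs 11 were higher and 18 lower, where the shares over all genes were 22.8% and 20.5%. Past an absolute log2 fold change of 1 there were 3 higher and none lower in CD11b- AMs (3.98% and 2.51% of all genes), and 4 higher and 3 lower in CD11b+ AMs (9.57% and 5.68%). The median log2 fold change over the oxidation genes was 0.091 in CD11b- AMs and -0.16 in CD11b+ AMs, against 0.003 and -0.005 over all genes. CD11b+ AMs set directly against CD11b- AMs had 9 oxidation genes higher and 21 lower, where 19.8% and 16.6% of all genes were, and past the 1 limit 3 higher (6.85%) and 1 lower (3.3%).

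A few genes at the edges of the pathway were higher in CRE+ AMs by far more than the rest. *Pdk4* had 108, 79.7, 69.1, 85.8 and 63.6 CPM in CD11b- AMs and 238, 186, 172, 145 and 174 CPM in CD11b+ AMs, compared with 9.58 to 18.3 CPM in CRE- AMs. The log2 fold changes were 2.74 (SE 0.18, edgeR BH-adjusted p = 9.68e-10) and 3.90 (SE 0.19, edgeR BH-adjusted p = 1.55e-12). The 3 AM groups did not overlap, and CD11b+ AMs were above CD11b- AMs by 1.17 (edgeR BH-adjusted p = 1.38e-05). *Acsl3* had 13.4, 9.19, 13.2, 14.8 and 16.2 CPM in CD11b- AMs and 34.6, 42.5, 34.3, 46.2 and 50.6 CPM in CD11b+ AMs, so that CD11b+ AMs were above every KC library while CD11b- AMs overlapped CRE- KCs. Its log2 fold changes were 2.37 (SE 0.19, edgeR BH-adjusted p = 1.59e-08) and 4.01 (SE 0.19, edgeR BH-adjusted p = 2.02e-12), with 1.64 between the CRE+ groups. Among the other synthetases, *Acsl4* was at 0.16 and 0.32, of which the second passed but not without any one of 4 of the 10 libraries (0.28 to 0.40), while *Acsl1* at -0.21 and -0.14 and *Acsl5* at 0.091 and -0.08 did not pass.

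*Acot1* had 29.8, 35.2, 27.99, 26.3 and 31.1 CPM in CRE- AMs, 106, 112, 98.4, 132 and 119 CPM in CD11b- AMs and 141, 159, 135, 148 and 146 CPM in CD11b+ AMs. It was higher by 1.91 (SE 0.09, edgeR BH-adjusted p = 9.33e-12) and 2.26 (SE 0.091, edgeR BH-adjusted p = 1.38e-13), and no library of either CRE+ group came down to the CRE- range. *Acot2*, which lies 15.6 kb away on chromosome 12 and shares 27.7% of its 50-base words with other genes, mostly *Acot1*, stayed at low levels, with 3.89 to 8.53 CPM (median 6.08), 6.58 to 11.3 CPM (median 9.38) and 7.11 to 10.95 CPM (median 10.1) in the 3 groups. Its log2 fold changes were 0.60 (edgeR BH-adjusted p = 0.0488) and 0.59 (edgeR BH-adjusted p = 0.0328), the groups overlapped, and the call was lost without any one of 8 of the 10 libraries in CD11b- AMs (0.47 to 0.75) and of 6 of 10 in CD11b+ AMs (0.47 to 0.74).

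Among the genes listed under the carnitine shuttle, the peroxisomal *Crot* had the widest change in CD11b+ AMs. It had 70.97, 81.01, 70.7, 65.6 and 65.8 CPM in CRE- AMs, 93.7, 82.03, 115, 127 and 96.5 CPM in CD11b- AMs and 235, 242, 194, 196 and 268 CPM in CD11b+ AMs. The log2 fold changes were 0.53 (SE 0.11, edgeR BH-adjusted p = 0.00168) and 1.67 (SE 0.11, edgeR BH-adjusted p = 3.74e-10), the 3 groups were separate, and CD11b+ AMs were above CD11b- AMs by 1.14 (SE 0.11, edgeR BH-adjusted p = 1.96e-07). *Cpt1a* went down in both, with 416, 441, 349, 419 and 398 CPM in CD11b- AMs and 311, 355, 359, 385 and 331 CPM in CD11b+ AMs, none of which reached the CRE- level of 479.5 CPM or more. It was lower by -0.40 (SE 0.071, edgeR BH-adjusted p = 0.000357) and -0.62 (SE 0.071, edgeR BH-adjusted p = 6.05e-07). *Crat* was lower in CD11b- AMs (-0.61, edgeR BH-adjusted p = 3.71e-05) and did not pass in CD11b+ AMs (-0.20, 95% interval -0.38 to -0.031). *Cpt2* passed in CD11b+ AMs (-0.28) and not in CD11b- AMs (0.091), and between these groups it differed by -0.38 (edgeR BH-adjusted p = 0.00143).

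**Figure D3:**
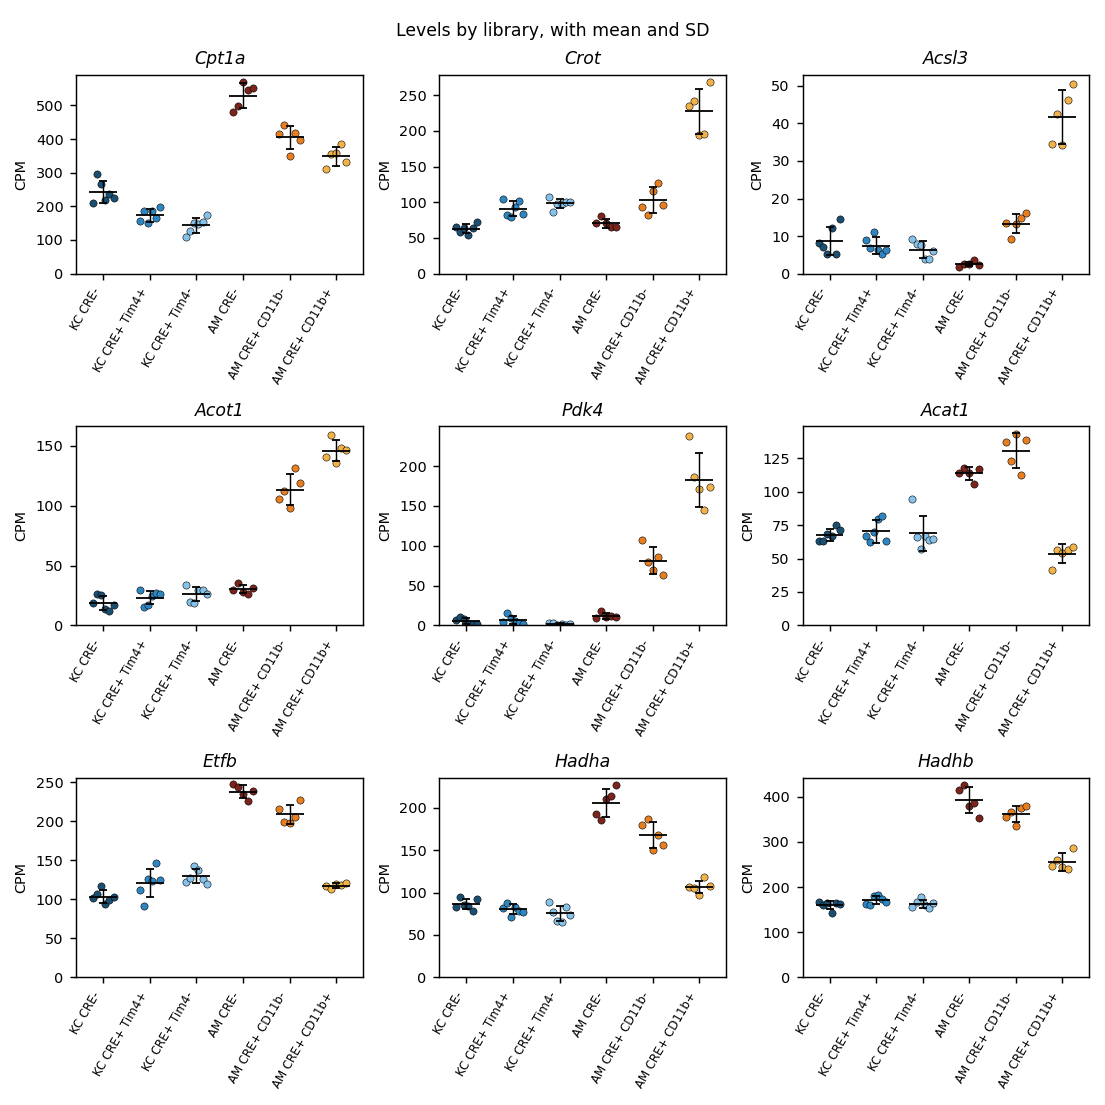
Level in CPM of 9 oxidation genes in each library of the 6 groups, with the mean as a line and the SD as bars. *Acsl3*, *Acot1* and *Pdk4* are highest in CD11b+ AMs, *Acat1* and *Etfb* are lower there than in the other AM groups, and *Cpt1a* is lower and *Crot* higher in the CRE+ groups of both tissues.

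Most of the later steps of the mitochondrial cycle were lower in CD11b+ AMs. Of the 7 later steps 5 were lower and 1 higher there, whereas in CD11b- AMs 1 was lower and 1 higher. *Acat1* had 114, 117, 114, 105 and 117 CPM in CRE- AMs, 137, 123, 143, 112 and 139 CPM in CD11b- AMs and 41.3, 56.6, 54.4, 56.3 and 58.8 CPM in CD11b+ AMs (log2 fold change -1.10, SE 0.09, edgeR BH-adjusted p = 4.5e-09 for CD11b+ over CRE-). Between the CRE+ groups it differed by -1.30 (SE 0.09, edgeR BH-adjusted p = 1.97e-09), and CD11b+ AMs were below every other AM library. *Hadha* had 180.0, 187, 150.3, 168 and 156 CPM in CD11b- AMs and 107, 105, 97.6, 118 and 107 CPM in CD11b+ AMs (log2 fold change -0.96, SE 0.074, edgeR BH-adjusted p = 2.12e-09 for CD11b+ over CRE-), and its partner *Hadhb* had 356, 366, 334, 375 and 379 CPM and 246, 259, 243, 239 and 287 CPM (log2 fold change -0.64, SE 0.066, edgeR BH-adjusted p = 1.3e-07). Both subunits were thus lower in every CD11b+ library than in any CRE- library. *Echs1* and *Acaa2* were lower by -0.67 and -0.54, *Hadh* was higher by 0.21 (edgeR BH-adjusted p = 0.0428, lost without any one of 7 of the 10 libraries, at 0.16 to 0.25), and *Hsd17b10* did not pass, at -0.16. Of the 50-base words in *Hadhb* transcripts, 19.7% are shared with other annotated genes, mostly *Gm13910*.

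The electron transfer genes and the dehydrogenases were mixed. *Etfb* had 215, 198, 197, 205 and 227 CPM in CD11b- AMs and 116, 113, 119, 119 and 120.1 CPM in CD11b+ AMs (log2 fold change -1.03, SE 0.055, edgeR BH-adjusted p = 8.54e-12 for CD11b+ over CRE-), and *Etfa* was lower by -0.59 (SE 0.08, edgeR BH-adjusted p = 5.13e-06). All 3 electron transfer genes were lower in CD11b+ than in CD11b- AMs, by -0.69 for *Etfa*, -0.84 for *Etfb* and -0.43 for *Etfdh*. Of the dehydrogenases *Acads* fell furthest, to 65.8, 62.7, 67.5, 73.4 and 71.3 CPM in CD11b+ AMs (log2 fold change -0.87, SE 0.068, edgeR BH-adjusted p = 2.37e-09). *Acadl* went up, with log2 fold changes of 0.36 (edgeR BH-adjusted p = 0.00105) and 0.57 (edgeR BH-adjusted p = 2.72e-06) in CD11b- and CD11b+ AMs, and *Acadvl* did so by 0.19 and 0.23, of which the first was lost with all 33 libraries in the fit (0.20, edgeR BH-adjusted p = 0.118). *Acadm* was lower in CD11b+ AMs by -0.24, a call lost without any one of 4 of the 10 libraries (-0.29 to -0.20), and *Acad9* by -0.40. *Acad11* and *Acad10* did not pass in either comparison with CRE- AMs. Among the enzymes for double bonds, *Eci2* was higher in CD11b- AMs (0.47, edgeR BH-adjusted p = 1.32e-05) and lower in CD11b+ AMs (-0.34, edgeR BH-adjusted p = 0.000178), and the CRE+ groups differed by -0.81 (edgeR BH-adjusted p = 6.91e-09). *Decr2* was higher in CD11b+ AMs, by 0.60, while *Decr1* did not pass in either.

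**Figure D4:**
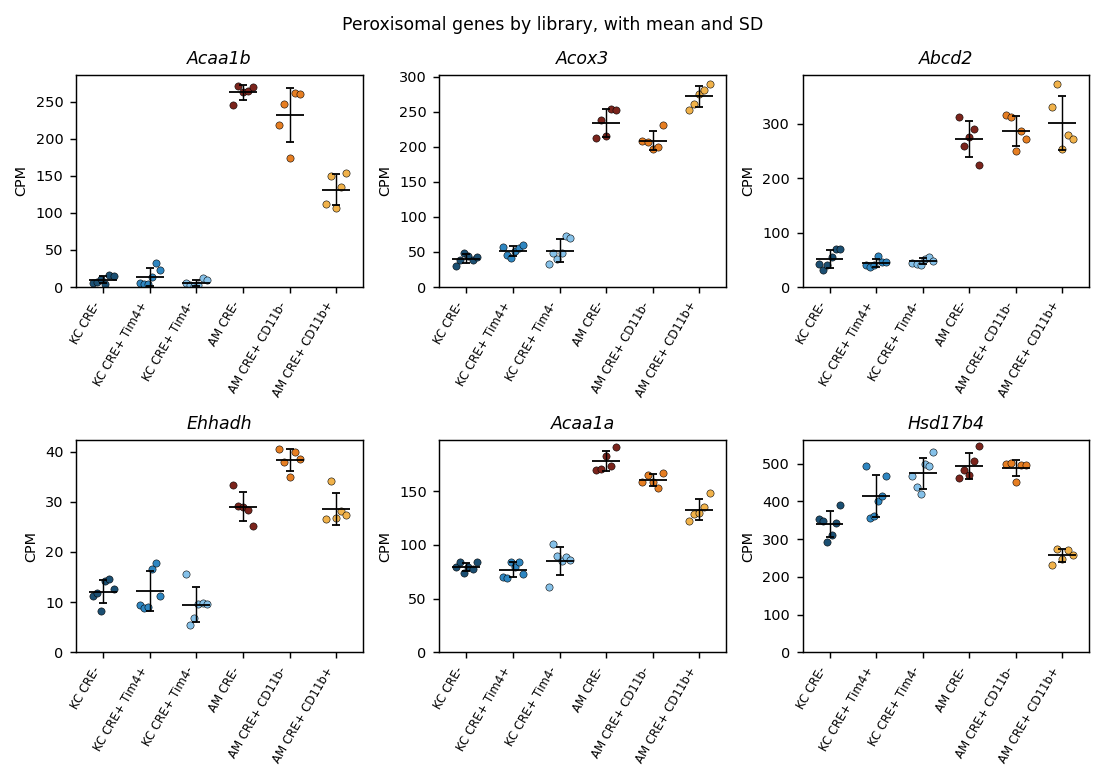
Level in CPM of 6 peroxisomal genes in each library of the 6 groups, with the mean as a line and the SD as bars. AMs are above KCs for *Acaa1b*, *Acox3* and *Abcd2* in every library, and *Acaa1b*, *Acaa1a* and *Hsd17b4* are lower in CD11b+ AMs than in the other AM groups.

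Peroxisomal genes gave 1 higher and 4 lower genes of 7 in CD11b+ AMs, and 1 higher and none lower in CD11b- AMs. *Acaa1b* had 219, 246, 174, 262 and 261 CPM in CD11b- AMs and 113, 150.2, 107, 135 and 153 CPM in CD11b+ AMs (log2 fold change -1.01, SE 0.11, edgeR BH-adjusted p = 2.9e-07 for CD11b+ over CRE-), with every CD11b+ library below every other AM library and yet above all KC libraries. With all 33 libraries in the fit this *Acaa1b* call was lost (edgeR BH-adjusted p = 0.0782). *Hsd17b4* had 463 to 547 CPM (median 483) in CRE- AMs, 451 to 502 CPM (median 497) in CD11b- AMs and 231 to 274 CPM (median 258) in CD11b+ AMs (log2 fold change -0.96, SE 0.061, edgeR BH-adjusted p = 1.29e-10). CD11b- AMs differed from CRE- AMs by -0.023 (95% interval -0.14 to 0.10) and overlapped them, while every CD11b+ library lay below both. *Acaa1a* and *Abcd3* were lower in CD11b+ AMs by -0.44 and -0.60, *Acox3* was higher by 0.20 (edgeR BH-adjusted p = 0.0225, lost without replicate 1 or 3 of CRE- AMs or replicate 5 of CD11b+ AMs, at 0.16 to 0.23 over all left-out libraries), and *Abcd2* did not pass, at 0.13. *Ehhadh* was the gene higher in CD11b- AMs, by 0.39 (edgeR BH-adjusted p = 0.00483, but 0.173 with all 33 libraries in the fit), and was at -0.036 in CD11b+ AMs. *Ucp2* had 3274, 3358, 3106, 3193 and 3365 CPM in CD11b- AMs and 1898, 1999, 1958, 2067 and 2036 CPM in CD11b+ AMs, lower than CRE- AMs by -0.23 and -0.95 (edgeR BH-adjusted p = 2.5e-12 for the second).

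Markers of other cells moved with these groups, so their levels stand here beside the AM results. The summed level of 5 neutrophil genes was 50.9 to 70.2 CPM in CRE- AMs, 847 to 2278 CPM in CD11b- AMs and 7414 to 9767 CPM in CD11b+ AMs, in the CRE+ groups mostly from *S100a8* and *S100a9*. Of the 4 neutrophil genes tested, 3 were called higher in CD11b- AMs and all 4 in CD11b+ AMs, against CRE- AMs. *Camp*, a neutrophil granule gene on that list, had no count in CD11b- AMs and at most 3.48 CPM in CD11b+ AMs, and *Retnlg* had at most 4.69 CPM in any AM library. The 6 lung epithelial genes, among them *Krt8* and *Krt18*, summed to 19.5 to 29.0 CPM, 77.4 to 124 CPM and 474 to 871 CPM in the same order. Of these 6 genes 3 were called higher in CD11b- AMs and 4 in CD11b+ AMs, with median log2 fold changes of 0.94 and 1.18. The sum thus rose more than the median gene of that list. The 6 monocyte genes summed to 598 to 1045 CPM, 80.6 to 175 CPM and 348 to 630 CPM. Most of the monocyte sum was *Fn1*, which was lower in both CRE+ groups than in CRE- AMs. Of the 5 monocyte genes tested 4 were higher in CD11b+ AMs, among them *Ly6c2* and *Ccr2*, and *Ccr2* was higher in CD11b- AMs. The 6 AM genes summed to 18389 to 28890.1 CPM in CRE- AMs, to 21712 to 31144 CPM in CD11b- AMs and to 39358 to 54312 CPM in CD11b+ AMs, most of it from *Chil3*. Of these 6 genes 1 was higher and 3 lower in CD11b- AMs, and 3 were higher (*Car4*, *Chil3* and *Marco*) and 3 lower (*Fabp4*, *Krt79* and *Siglecf*) in CD11b+ AMs. Their part in the changes of the oxidation genes was not tested.

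CRE+ KCs were read in the same way, again with shared CRE- libraries, and few oxidation genes changed. CRE- KCs were not split by Tim4, which the study ties to the time KCs have spent in the tissue. Loss of *Zeb2*, sort gate and cell origin therefore cannot be told apart in these comparisons. In Tim4+ KCs 1 of 41 was higher and 1 lower, where 3.63% and 2.46% of all 12500 genes tested were, and in Tim4- KCs 5 were higher and 2 lower, where 12.2% and 13.2% were. Past an absolute log2 fold change of 1 there was none in Tim4+ KCs (1.94% higher and 0.376% lower over all genes), and 1 lower in Tim4- KCs (3.43% higher and 5.39% lower over all genes). Tim4- against Tim4+ KCs gave 1 lower gene and none higher, where 7.62% of all genes were lower and 3.84% higher, and that gene also passed the 1 limit (5.01% lower and 0.44% higher over all genes). The medians over the oxidation genes were 0.027 in Tim4+ KCs, -0.029 in Tim4- KCs and -0.051 between them. The count of 0 higher genes between the Tim4 groups was also that of limma voom and DESeq2, and 1 gene was higher at an unadjusted p under 0.05. Without replicate 1 of Tim4- KCs, the shallowest library, 7 were higher and 4 lower in Tim4- KCs.

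Marker genes moved with the KC groups as well. The 5 KC genes summed to 21154 to 23177 CPM in CRE- KCs, 12240 to 13655 CPM in Tim4+ KCs and 8828 to 10358 CPM in Tim4- KCs, with 4 of 5 called lower in Tim4+ KCs (*Timd4* not) and all 5 in Tim4- KCs. The 6 AM genes summed to 319 to 1149 CPM, 1419 to 2238 CPM and 461 to 734 CPM in the same order, and of the 4 tested 3 were higher in Tim4+ KCs, and 2 higher and 1 lower in Tim4- KCs. The 8 liver endothelial genes were all called lower in Tim4- KCs and none in Tim4+ KCs, and of the 10 hepatocyte genes 1 was lower in Tim4- KCs. The 6 monocyte genes summed to 171 to 312 CPM in CRE- KCs, 149 to 354 CPM in Tim4+ KCs and 289 to 821 CPM in Tim4- KCs. Of the 4 tested 1 was higher in Tim4+ KCs, and 1 higher and 1 lower in Tim4- KCs. The 5 B cell genes summed to 47.7 to 86.8 CPM, 21.1 to 48.9 CPM and 48.4 to 111 CPM. Of the 4 tested 1 was lower in Tim4+ KCs and none was called in Tim4- KCs. Their part in the KC results was not tested.

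The 2 genes called in Tim4+ KCs were both listed under the carnitine shuttle, the mitochondrial *Cpt1a* and the peroxisomal *Crot*. Both were called in Tim4- KCs as well. *Cpt1a* had 210.5 to 296 CPM (median 231) in CRE- KCs, 151 to 199 CPM (median 175) in Tim4+ KCs and 109.9 to 175 CPM (median 149) in Tim4- KCs. It was lower by -0.50 (SE 0.11, edgeR BH-adjusted p = 0.00572) and by -0.78 (SE 0.11, edgeR BH-adjusted p = 2.08e-05), and no CRE+ library reached the lowest CRE- library. *Crot* had 54.7 to 71.9 CPM (median 64.4), 79.3 to 105 CPM (median 88.5) and 86.9 to 107 CPM (median 98.8) in the same groups. It was higher by 0.50 (SE 0.086, edgeR BH-adjusted p = 0.00062) and by 0.62 (SE 0.086, edgeR BH-adjusted p = 2.1e-05), again with no overlap. Tim4- and Tim4+ KCs overlapped for both genes and did not differ by the test (*Cpt1a* -0.28, edgeR BH-adjusted p = 0.104, 95% interval -0.49 to -0.067). Both calls held without any single library and under every other way of processing that was run, apart from the added limit of 1. With the AM values above, *Cpt1a* was called lower and *Crot* higher in each of the 4 CRE+ groups, of which the 2 in a tissue share their controls.

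In Tim4- KCs 4 further genes were higher. *Hsd17b4* had 292 to 391 CPM (median 346) in CRE- KCs and 419 to 530.5 CPM (median 479.9) in Tim4- KCs (log2 fold change 0.46, SE 0.091, edgeR BH-adjusted p = 0.000841), without overlap. *Etfb* had 94.1 to 117 CPM (median 102) and 119 to 143 CPM (median 127) (log2 fold change 0.30, SE 0.091, edgeR BH-adjusted p = 0.0186), also without overlap. *Eci1* and *Hsd17b10* were higher by 0.31 (edgeR BH-adjusted p = 0.0211) and 0.31 (edgeR BH-adjusted p = 0.033). The call of *Eci1* was lost without replicate 3 or 5 of CRE- KCs or replicate 3 of Tim4- KCs (0.28 to 0.34), and that of *Hsd17b10* without replicate 2, 4 or 5 of CRE- KCs or replicate 2 or 3 of Tim4- KCs (0.27 to 0.36). In replicates 1 to 4 alone, those without *Ddx3y* reads, *Crot* and *Hsd17b4* were called higher, and *Etfb*, *Eci1* and *Hsd17b10* were at 0.33, 0.35 and 0.36 with edgeR BH-adjusted p = 0.061, 0.059 and 0.0801. *Hsd17b4* and *Etfb* are thus higher in Tim4- KCs and, as given above, lower in CD11b+ AMs.

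*Pdk4* was the one gene past the 1 limit in KCs, in the direction opposite to AMs. It had 1.95 to 10.4 CPM (median 4.85) in CRE- KCs, 1.98 to 15.97 CPM (median 4.58) in Tim4+ KCs and 0.452 to 2.96 CPM (median 1.56) in Tim4- KCs. It was lower in Tim4- KCs than in CRE- KCs by -1.73 (SE 0.55, edgeR BH-adjusted p = 0.0251) and than in Tim4+ KCs by -2.03 (SE 0.55, edgeR BH-adjusted p = 0.0192), and the groups overlapped in both. Against CRE- KCs the call was lost without replicate 2 (-1.42) or 3 (-1.59) of CRE- KCs or replicate 3 (-1.52) or 5 (-1.58) of Tim4- KCs. Between the Tim4 groups it was lost without replicate 2 of Tim4+ KCs (-1.55). With limma voom neither passed, at BH-adjusted p = 0.0774 and 0.0665. *Pdk4* levels also differed with the replicate number. In CRE- KCs they were 1.95 to 2.05 CPM in replicates 5 and 6, those with *Ddx3y* reads, and 2.74 to 10.4 CPM in replicates 1 to 4. In Tim4+ KCs they were 1.98 to 3.71 CPM against 4.02 to 15.97 CPM. In Tim4- KCs the ranges overlapped, at 0.745 to 1.66 CPM and 0.452 to 2.96 CPM. The summed level of 10 hepatocyte genes was 179 to 468 CPM in CRE- KCs, 138 to 431 CPM in Tim4+ KCs and 88.1 to 251 CPM in Tim4- KCs, and that of 8 liver endothelial genes 654 to 1983 CPM, 1099 to 3282 CPM and 359 to 538 CPM, and their part in the lower *Pdk4* level was not tested.

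The 3 peroxisomal genes with the widest gap between the tissues, and *Acsl3* and *Acot1*, passed in neither CRE+ KC group. This did not hold for all genes that differed between the tissues, since *Etfb* and *Eci1*, both below the AM level in CRE- KCs, were called higher in Tim4- KCs. *Acaa1b* was at 0.48 in Tim4+ KCs (95% interval -0.63 to 1.59) and at -0.82 in Tim4- KCs (-1.95 to 0.31). For *Acox3* the values were 0.35 (0.023 to 0.67) and 0.35 (0.028 to 0.68), and for *Abcd2* -0.24 (-0.57 to 0.088) and -0.15 (-0.48 to 0.18). *Acsl3*, so high in CRE+ AMs, was at -0.25 (-0.81 to 0.31) and -0.47 (-1.04 to 0.089), and *Acot1* at 0.30 (-0.11 to 0.70) and 0.46 (0.054 to 0.87). Most of these intervals leave room for changes in both directions.

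**Figure D5:**
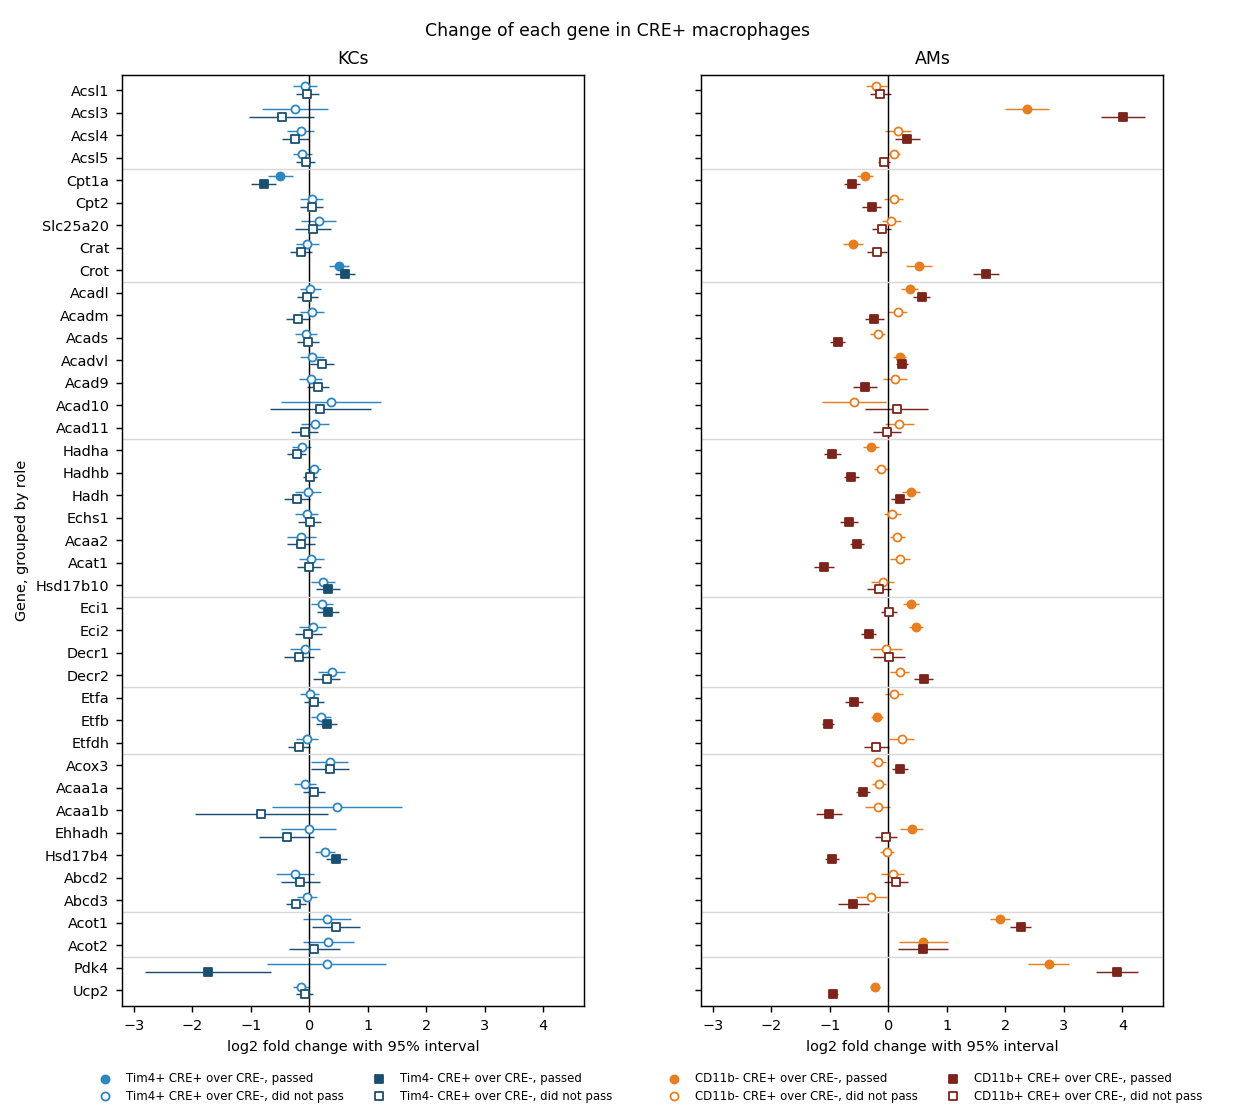
Log2 fold change of each CRE+ group over the CRE- group of the same tissue for 41 oxidation genes, with 95% intervals, KCs on the left and AMs on the right, and filled symbols for an adjusted p under 0.05. Few KC symbols are filled, CD11b+ AMs have the most, and *Acsl3*, *Acot1* and *Pdk4* stand far to the right in AMs.

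Whether the change in CRE+ cells differed between the tissues was tested as an interaction, the mean change of both CRE+ KC groups less that of both CRE+ AM groups, in 1 fit over all 33 libraries. Cre line, sort gate and fall in *Zeb2* differed with the tissue, so their parts in this difference cannot be told apart. Of 41 oxidation genes 11 had a higher and 7 a lower change in KCs, where 10% and 9.52% of all 13294 genes tested had. Past an absolute difference of 1 there were 3 lower and none higher (4.65% and 3.5% of all genes). These 3 were *Pdk4* with a difference of -4.06 (SE 0.52, edgeR BH-adjusted p = 3.5e-07), *Acsl3* with -3.54 (SE 0.33, edgeR BH-adjusted p = 7.39e-10) and *Acot1* with -1.70 (SE 0.22, edgeR BH-adjusted p = 2.92e-07). The largest differences towards KCs were those of *Etfb* (0.87, edgeR BH-adjusted p = 1.27e-08) and *Hsd17b4* (0.86, edgeR BH-adjusted p = 4.38e-08). *Crot*, higher in all 4 CRE+ groups, had a smaller mean change in KCs than in AMs (-0.53, edgeR BH-adjusted p = 0.00194). Its changes of 0.50 and 0.62 in Tim4+ and Tim4- KCs were close to the 0.53 of CD11b- AMs and below the 1.67 of CD11b+ AMs. For *Cpt1a* no difference between the tissues passed (-0.12, 95% interval -0.36 to 0.11). *Hadha* and *Hadhb* differed by 0.47 and 0.43 on this scale. In CD11b+ AMs their own changes were -0.96 and -0.64, and in CD11b- AMs *Hadha* was called lower (-0.30) and *Hadhb* was not (-0.12).

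Further genes around the pathway were read from 4 lists, of which the genes with the largest changes past an absolute log2 fold change of 1 are named. Their counts stand against the shares of all genes called higher and lower, which were 33.3% and 29.9% for CRE- KCs against CRE- AMs, 13.3% and 12.4% for CD11b- AMs, 22.8% and 20.5% for CD11b+ AMs, 3.63% and 2.46% for Tim4+ KCs, and 12.2% and 13.2% for Tim4- KCs. Of 27 other genes of fatty acid uptake, thioesters and peroxisomal oxidation, 20 were tested between CRE- KCs and CRE- AMs, with 9 higher and 5 lower in KCs. *Slc27a2*, a very long chain synthetase known from hepatocytes, had 0.735 to 8.11 CPM (median 1.98) in KCs and no count in 4 of the 5 AM libraries. *Slc27a4*, a fatty acid transport protein, had 36.8, 30.5, 33.3, 37.9 and 36.01 CPM in CRE- AMs, 51.6, 72.03, 98.9, 78.1 and 53.6 CPM in CD11b- AMs and 132, 128, 166, 134 and 137 CPM in CD11b+ AMs, higher by 1.01 and 1.98 (edgeR BH-adjusted p = 7.45e-10 for the second). *Acot4*, a thioesterase of the family of *Acot1*, was lower in KCs than in AMs (-1.55) and higher in CD11b- and CD11b+ AMs than in CRE- AMs, by 1.49 and 1.23. This list had 6 higher and 3 lower genes of 19 in CD11b- AMs and 4 and 6 of 19 in CD11b+ AMs. In KCs 2 of 24 were lower in Tim4+ and 2 of 24 in Tim4- KCs, among them *Abcd4*, a transporter of cobalamin (log2 fold change -1.28, SE 0.15, edgeR BH-adjusted p = 1.96e-06 in Tim4- KCs), and edgeR called 0 higher in both, where 0 in Tim4+ and 2 in Tim4- KCs were higher at an unadjusted p under 0.05.

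Of 20 regulators 16 were tested between the CRE- groups, with 4 higher and 6 lower in KCs. *Pparg*, a nuclear receptor for lipid ligands and a known factor of AMs, had 9.497 to 27.8 CPM (median 21.5) in KCs and 252, 239.9, 257, 257 and 231 CPM in AMs (log2 fold change -3.59, SE 0.22, edgeR BH-adjusted p = 2.75e-09), and *Lpin1*, a phosphatase that also acts as a coactivator, had 11.98 to 28.7 CPM (median 20.005) and 293, 297, 369, 403 and 395 CPM (log2 fold change -4.14, SE 0.18, edgeR BH-adjusted p = 7.49e-11). Both were many times higher in AMs. *Ppara*, the related receptor known from liver, was at 0.158 to 1.84 CPM (median 0.717) in KCs and had no count in CRE- AMs. The 10 hepatocyte markers given above for KCs summed to at most 0.860 CPM in CRE- AMs, and their part in the KC levels of *Slc27a2* and *Ppara* was not tested. *Pparg* was higher in CRE+ KCs, with 29.5 to 43.9 CPM (median 40.2) in Tim4+ KCs (log2 fold change 0.89, SE 0.22, edgeR BH-adjusted p = 0.0138) and 32.9 to 60.4 CPM (median 46.1) in Tim4- KCs (log2 fold change 1.17, SE 0.22, edgeR BH-adjusted p = 0.000441), below every CRE- AM library. The regulators had 2 higher and 3 lower of 16 in CD11b- AMs, 2 and 5 of 16 in CD11b+ AMs, 1 higher of 17 in Tim4+ KCs, and 1 higher and 2 lower of 17 in Tim4- KCs. *Ppargc1b*, a coactivator of mitochondrial genes, was lower in CD11b+ than in CRE- AMs, by -1.14 (edgeR BH-adjusted p = 7.08e-05). *Esrrg*, an orphan receptor, stayed at no more than 1.22 CPM in every AM library.

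Of 5 ketone body genes tested, 2 were higher and 3 lower in CRE- KCs. *Acss1*, a mitochondrial acetyl-CoA synthetase, was lower in KCs by -3.94 and lower in CD11b+ than in CRE- AMs by -1.20. *Bdh1*, which interconverts the 2 main ketone bodies, was lower in KCs (-2.98), and lower in CD11b- and CD11b+ than in CRE- AMs by -1.67 and -1.72.

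Of 16 peroxisome assembly genes, CRE- KCs had 2 higher and 6 lower against CRE- AMs, and 6 were lower in CD11b+ AMs. The 6 lower genes in KCs are a share near the 29.9% of all genes. *Pex11a*, which drives peroxisome division, had 19.3, 21.3, 17.7, 18.5 and 18.2 CPM in CRE- AMs, 14.96, 13.4, 13.1, 8.14 and 7.69 CPM in CD11b- AMs and 3.96, 5.38, 6.67, 4.79 and 4.06 CPM in CD11b+ AMs (log2 fold change -1.94, SE 0.20, edgeR BH-adjusted p = 9.4e-08 for CD11b+ over CRE-). Its KC level was 1.67 to 4.11 CPM (median 2.997), lower than in CRE- AMs by -2.71. *Pex16*, needed for making the peroxisomal membrane, had 68.2, 60.8, 50.5, 47.6 and 53.8 CPM in CRE- AMs, 44.3, 43.6, 33.3, 33.1 and 36.02 CPM in CD11b- AMs, 27.3, 28.1, 23.7, 22.6 and 27.2 CPM in CD11b+ AMs and 12.4 to 17.5 CPM (median 13.96) in CRE- KCs. It was lower in CD11b+ AMs by -1.14 and in KCs by -1.93 (edgeR BH-adjusted p = 1.19e-07 and 4.02e-09). *Pex11g*, of the same family as *Pex11a*, was lower in KCs by -2.31.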

How the data were processed

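Bulk RNA-seq was available for 33 samples of sorted macrophages, grouped by the labels. Per the labels and the methods of the study, the authors trimmed reads with Trimmomatic 0.35, checked them with FastQC 0.11.4, mapped them to mm10 with TopHat2 2.1.0 and SAMtools 0.1.18, and deposited whole-number read counts per gene from HTSeq-count, with 1 file per sample and no pooling. The annotation and the strand setting of the counting are not given in the sources used here, so reads of a gene and an overlapping antisense gene cannot be told apart, which touches *Acsl1*, *Acsl5*, *Crat*, *Crot*, *Acadvl*, *Acad11*, *Hadha*, *Echs1*, *Eci2*, *Etfdh*, *Acox3*, *Acaa1a*, *Acaa1b* and *Ucp2*. Exons of *Acsl3*, *Cpt1b*, *Crot*, *Acad9*, *Acad11* and *Etfb* overlap another gene on the same strand. The 5 tally rows of reads without a gene held 5.88% to 10.1% of a library and were left out. Depth was 9837240 to 24332306 counts per library.

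The main test was edgeR 4.0.16 (R 4.3.3), with TMM factors, the filter filterByExpr, the quasi-likelihood test and Benjamini-Hochberg adjustment over all genes tested. CRE- KCs and CRE- AMs were fitted alone, KC comparisons in the 18 KC libraries, AM comparisons in the 15 AM libraries and the tissue difference in all 33. Standard errors come from the same fit, and 95% intervals are 1.96 SE to each side. The heat map added 0.5 to CPM before the log. DESeq2 1.42.0, limma voom (limma 3.58.1), RLE size factors, other filters on low counts, other sets of libraries, the *Ddx3y* level as a covariate, a replicate block and leaving out each library were alternatives. Tests were tried on simulated data with 200 changed genes, drawn on real means with the same fixed dispersion for every gene. In these, changes of 2 on the log2 scale were recovered at 100%, and changes of 1 at 93% to 97%, except 77.6% for the tissue difference. Recovery for genes of wider spread was not tested, such as *Pdk4* with an SD of log2 CPM of 1.05 in CRE- KCs. Nothing in the sources says whether each sample is 1 mouse, so p-values measure the spread between these samples. Both the 42 genes and the further lists were chosen with earlier results of these data known. Named genes were the 42, and from each further list up to 3 genes per comparison with the largest change past adjusted p 0.05 and an absolute log2 fold change of 1. Results for a few genes of these further lists are not reported here. Values in every library were given for genes past both limits in any comparison, and for *Acad11* and *Decr1*, the first of their roles that passed in none. Shared 50-base words were counted in GENCODE M21 transcripts, levels per kilobase used GENCODE exon lengths, and promoter windows were those of RefSeq for GRCm38.p6.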

Additional observations from a re-analysis of the deposited data

Results flagged for a closer look

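In 246 sets of a gene and a group, 24 libraries stood far from the rest of their group by Dixon's test, and chance alone finds about 1 in 20 sets. In CRE- KCs, *Acadl* was 113 CPM in replicate 2, *Hadhb* and *Acaa2* were 142 and 67.1 CPM in replicate 4, *Decr1* was 27.4 CPM in replicate 6, and *Acot2* was 7.10 CPM in replicate 1. In Tim4+ KCs, *Acad10* was 1.52 CPM in replicate 6, and *Decr1* and *Decr2* were 28.6 and 68.7 CPM in replicate 5. In Tim4- KCs, replicate 1, the shallowest library, had *Acat1* at 94.3 CPM, *Decr2* at 36.8 CPM and *Ucp2* at 1145 CPM, *Etfdh* was 24.5 CPM in replicate 2 and *Hadh* was 32.2 CPM in replicate 3.

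In CRE- AMs, *Crat* and *Acat1* were 138 and 105 CPM in replicate 4, *Hsd17b10* and *Ucp2* were 44.8 and 4186 CPM in replicate 5, and *Pdk4* was 18.3 CPM in replicate 2, against 9.58 to 11.6 CPM in the other 4. In CD11b- AMs, *Eci2* was 112 CPM in replicate 1 and *Hsd17b4* was 451 CPM in replicate 3. In CD11b+ AMs, replicate 1 had *Acadm* at 75.0 CPM, *Acat1* at 41.3 CPM and *Decr1* at 27.3 CPM, and *Ehhadh* was 34.2 CPM in replicate 2.

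For 18 genes the change in CRE+ cells differed between KCs and AMs by the interaction test (edgeR, BH-adjusted p under 0.05 for each), in which tissue, Cre line and sort gate cannot be told apart. The difference on the log2 scale, KC change less AM change, was -4.06 for *Pdk4*, -3.54 for *Acsl3*, -1.70 for *Acot1*, -0.53 for *Crot*, -0.47 for *Acadl*, -0.43 for *Acsl4* and -0.41 for *Hadh*. It was 0.87 for *Etfb*, 0.86 for *Hsd17b4*, 0.49 for *Acads*, 0.49 for *Ucp2*, 0.48 for *Acat1*, 0.47 for *Hadha*, 0.43 for *Hadhb*, 0.41 for *Hsd17b10*, 0.33 for *Crat*, 0.30 for *Etfa* and 0.30 for *Acaa1a*. The call of *Crat* was kept without 12 of the 33 libraries in turn, that of *Acsl4* without 21, and those of *Etfa* and *Acaa1a* without 26 and 27.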

How the results depend on the processing

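None of the 134 calls on these genes reversed. Of 1025 results under alternatives other than left-out libraries 991 kept the call, and of 1805 with 1 library left out 1697 did. The alternative with replicates 1 to 4 alone was chosen after seeing the data. With the added limit of 1 on the log2 scale, genes higher and lower numbered 3 and 0 for CD11b- AMs, 4 and 3 for CD11b+ AMs, 3 and 1 between these groups, 0 and 3 for the tissue difference, 0 and 1 for Tim4- KCs, 0 and 0 for Tim4+ KCs, and for CRE- KCs against CRE- AMs 18 were lower. In Tim4- KCs 9 were higher with all 33 libraries in the fit and 2 with replicates 1 to 4. Between the Tim4 groups 2 were lower with all 33 libraries, with the *Ddx3y* covariate and with the replicate block, and 0 with limma voom. In Tim4+ KCs 4 were higher with all 33 libraries, 3 with DESeq2, and 2 with the *Ddx3y* covariate, limma voom, the replicate block, RLE factors, at least 10 counts in every library, or only the 2 groups in the fit.

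With 1 library left out, the counts of higher and lower genes ranged from 3 to 3 and 27 to 29 for CRE- KCs against CRE- AMs, 10 to 11 and 5 to 7 for CD11b- AMs, 8 to 10 and 17 to 19 for CD11b+ AMs, 7 to 9 and 20 to 23 between these, and 8 to 12 and 6 to 7 for the tissue difference. They ranged from 1 to 4 and 1 to 1 in Tim4+ KCs (4 without Tim4+ replicate 2), from 3 to 7 and 1 to 4 in Tim4- KCs (3 without CRE- replicate 5 or Tim4- replicate 3, 1 without CRE- replicate 2 or 3), and from 0 to 1 and 0 to 2 between the Tim4 groups (1 higher without Tim4- replicate 1, 0 lower without Tim4+ replicate 2, 2 lower without Tim4- replicate 6). The cause was not tested. The labels do not say whether equal replicate numbers share a mouse. Each Tim4+ KC library correlated best with the Tim4- KC library of its own number (6 of 6, r 0.0791 to 0.203). Each CD11b- AM library did so with the CD11b+ AM library of its number (5 of 5, r 0.0338 to 0.086). Of the CRE- AM libraries, which come from other mice than CD11b+ AMs, 4 of 5 also matched these by number (r -0.0055 to 0.0451). The Tim4 groups and the CD11b groups may be paired, but matches by number alone do not show it. No pair of groups had every correlation of deviations above 0.1. The main tests did not pair libraries by number, and the replicate block was the alternative that did. Over all genes, 347 rather than 761 were called in Tim4+ KCs with replicates 1 to 4. Low counts limit *Cpt1b*, *Acad10*, *Acot2* and *Pdk4* in KCs.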
